A study of Homo sapiens with 6 samples.

Results

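CD24 and 6 other surface proteins that are used as markers of tumour stem-like cells were followed in SNU638 cells, an established human gastric cancer cell line. The other members were CD44, PROM1, EPCAM, ALCAM, CD9 and CD47. RNA was measured on 3 arrays of cells stably overexpressing LAP2β and 3 arrays of mock cells. LAP2β is the main membrane-bound isoform of the lamina-associated polypeptide 2 gene TMPO, a protein of the inner nuclear membrane. The LAP2β cells carried its cDNA in an expression vector with a viral promoter, co-transfected with a neomycin resistance vector and selected with G418. The mock cells were made at the same time with the empty vector, so both groups carried a vector and both came from the same parental line. The study calls the arrayed LAP2β cells a stable line and mentions a clone by number among its overexpressing cells, without stating whether that clone was the one on the arrays. A difference between the groups therefore cannot be told apart from a difference between the cell populations that were selected. Nothing in the labels tells whether replicate arrays were grown as separate cultures. The p-values given here thus cover the spread among 3 arrays a group, and that spread may be technical.

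The members were chosen by 2 criteria. CD24 was selected on the measured LAP2β against mock difference of these same 6 arrays, since it stands among the changed genes that the study lists. Its difference is given below as a description, with no test. The other 6 genes entered by their function as surface markers, but with earlier results of these data known. All probes with a single annotated gene symbol equal to a member were taken, which gave 13 probes of the 7 genes out of 29377 probes in the table and 19432 genes with such a probe. A probe was kept when its signal passed a detection p-value of 0.01 on at least 3 of the 6 arrays. This left 10 probes of 6 members, out of 13323 probes of 9905 genes. PROM1 was the member with no probe above background. All 10 kept probes were above background on all 6 arrays, so none was kept through 1 group alone. On mock replicate 3 detection was estimated, here and below, from the ranks of its signals, since no deposited detection p-value matched it.

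CD24 is a short, heavily glycosylated protein held in the outer leaflet of the plasma membrane by a glycosylphosphatidylinositol (GPI) anchor, and it sits in lipid rafts with Src family kinases. It binds P-selectin on endothelium and platelets and Siglec-10 on macrophages. CD44, the receptor for hyaluronan, and PROM1 (CD133), a cholesterol-binding protein of membrane protrusions, are the surface markers most used to sort tumour-initiating cells from gastric and colorectal tumours. EPCAM and ALCAM (CD166) are adhesion molecules of epithelial cells, CD9 is a tetraspanin that arranges membrane proteins into microdomains, and CD47 is the ligand of SIRPα that restrains phagocytosis by macrophages. Which of these markers a cell line displays, and whether they move together, is a usual first question about such a panel.

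Across the 6 arrays the median signal before normalization was 189.5 to 195.8 in LAP2β cells and 192.2 to 199.9 in mock cells, and 44.1 to 46.6% of the probes were detected. The 75% quantile of that signal did not overlap between the groups, at 559 to 577 in LAP2β cells and 595 to 671 in mock cells, and this part of the distribution is made equal by quantile normalization but not by median scaling. Of 9905 genes, 1.17% were higher and 0.616% were lower in LAP2β cells at an adjusted p under 0.05 (limma, Benjamini-Hochberg over all kept probes). The number of arrays limits the precision, and the median standard error of a log2 difference over genes was 0.10. The probe of TMPO that was detected on all 6 arrays did not separate the groups (log2 difference -0.03, SE 0.12, adjusted p = 0.943 by limma). That probe is annotated to a transcript other than the β one. Another TMPO probe, the one annotated to the β transcript, was not above background on any array, so these arrays give no check of the LAP2β label. The study itself checked the overexpression by western blotting and real-time PCR and reported raised LAP2β RNA in SNU638 cells. All 8 epithelial markers examined passed the detection filter, with a summed signal of 36277 to 37458 in LAP2β cells and 30190 to 31591 in mock cells. Of 8 markers of differentiated gastric mucosa with a probe, none was detected on any array, and their summed signal was 1180 to 1241 in LAP2β cells and 1226 to 1285 in mock cells. The same held for all 7 endothelial markers (summed signal 1023 to 1097 in LAP2β cells and 967 to 1039 in mock cells). None of 7 fibroblast markers passed the filter, and 6 were detected on no array (1113 to 1118 in LAP2β cells and 1071 to 1177 in mock cells). Of 9 leukocyte markers, 6 were detected on no array, PTPRC among them, and CD68, which cancer cells also express, was the one that passed the filter (summed signal 5523 to 6488 in LAP2β cells and 5027 to 8824 in mock cells).

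CD24 was the member with the largest difference. The gene lies on chromosome 6 at chr6:106969831-106976855 (GRCh38.p14, as are all positions given here), and 2 probes measured it. On the brighter probe (ILMN_2060413) the signal before normalization was 7747, 6735 and 6808 in the 3 LAP2β arrays, against 3204, 3538 and 2807 in the 3 mock arrays. After quantile normalization its log2 signal was 13.03, 12.84 and 12.76 in LAP2β cells, against 11.63, 11.59 and 11.43 in mock cells. Every LAP2β array lay above every mock array, and the gap between the groups was wider than the spread within either. The group means were 12.88 ± 0.14 in LAP2β cells and 11.55 ± 0.11 in mock cells (SD, n = 3 each), a log2 difference of 1.33 (SE 0.10), or 2.52-fold. This placed CD24 at rank 16 of 9905 genes when these were ordered by their log2 difference, highest in LAP2β cells first.

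The other CD24 probe (ILMN_1805519) read 9.48, 9.40 and 9.11 in LAP2β cells, against 8.25, 8.25 and 8.30 in mock cells. Here too the groups stayed apart, with mock arrays close to each other and LAP2β replicate 3 the lowest of its group. The log2 difference was 1.07 (SE 0.11), or 2.09-fold. Both probes measure the same RNA samples and are no replicates of each other. CD24 has processed pseudogene copies elsewhere in the genome, and the sources used here do not say how far the probes tell them apart. Over 19 alternatives the log2 difference stayed between 1.16 and 1.39 on the brighter probe. On the other it stayed between 0.95 and 1.54, the highest after neqc background correction. Alternatives that changed only the detection filter, the test or the pairing could not move this difference. The rest changed the intensity values or left out 1 array. The authors' normalized values were counted in each of their deposited forms, which were equal. In RNA from a whole culture, more CD24-positive cells and more CD24 RNA per cell cannot be told apart. The summed epithelial marker signal given above was also higher on the LAP2β arrays, but in this linear sum the brightest markers, KRT19 and KRT8, weigh most. Marker by marker, none of the 8 passed the threshold in the unpaired fit. With pairs 2 were higher, KRT8 and CDH1, against 3.55% of all genes. The log2 difference was above 0 in 6, and below it in ELF3 (-0.14) and ESRP1 (-0.07). The part of these markers in the CD24 difference was not tested.

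**Figure D1:**
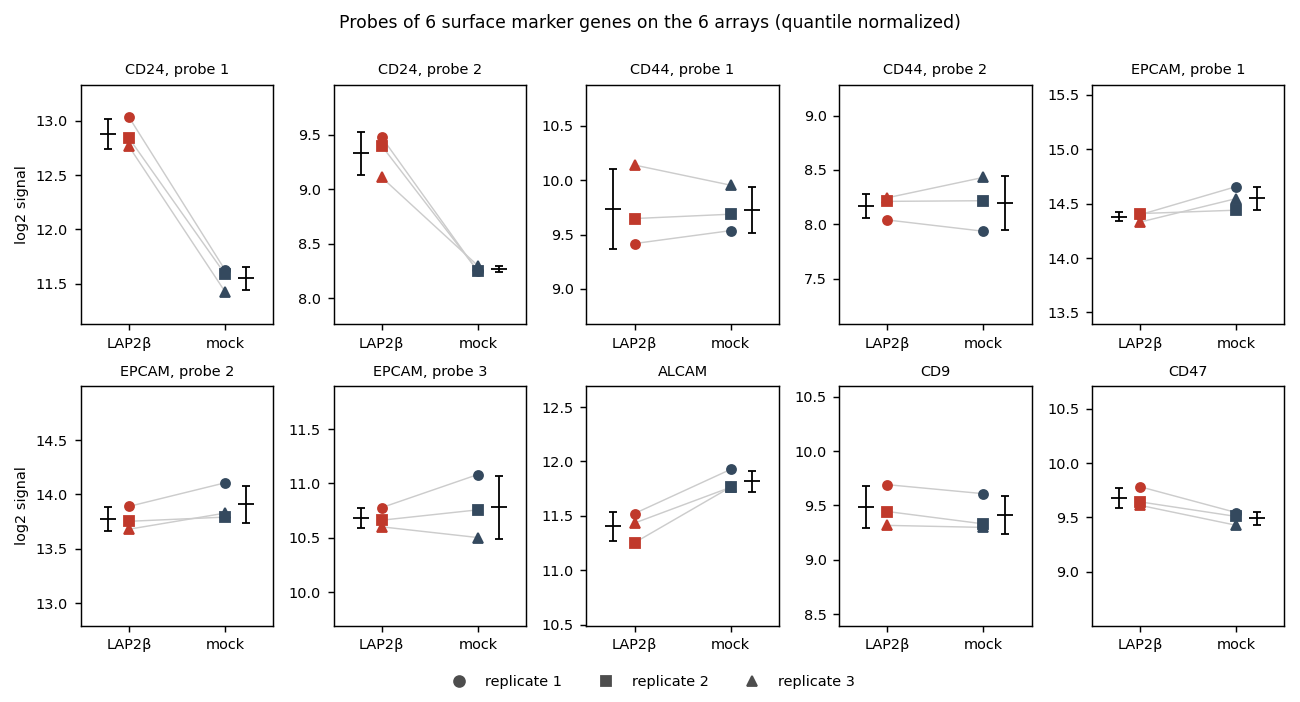
Log2 signal after quantile normalization (vertical axis, with the same span in every panel) of the 10 kept member probes on the 3 LAP2β arrays (red, left) and the 3 mock arrays (blue, right), with the mean and SD beside each group, grey lines between arrays of the same replicate number, and probes of a gene numbered from the brightest. Both CD24 probes separate the groups by over 1 log2 unit on average, ALCAM by 0.42 in the other direction, and both CD44 probes and the CD9 probe overlap.

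ALCAM went the opposite way. It is an immunoglobulin-superfamily protein that binds itself and CD6, and it is used as a marker of colorectal and other tumour stem-like cells. The gene lies at chr3:105366909-105576900, and 1 probe measured it (ILMN_1670870). The signal before normalization was 2704, 2259 and 2675 in LAP2β cells, against 3945, 3999 and 3526 in mock cells. The log2 signal after normalization was 11.52, 11.25 and 11.43 in LAP2β cells, against 11.93, 11.76 and 11.76 in mock cells. All LAP2β arrays were below all mock arrays. The means were 11.40 ± 0.14 in LAP2β cells and 11.82 ± 0.09 in mock cells (SD, n = 3 each), a log2 difference of -0.42 (SE 0.10, 95% interval -0.64 to -0.19), which is 1.33-fold in favour of mock cells.

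This difference did not pass the threshold in the unpaired limma fit (adjusted p = 0.0751 over 13323 probes). The labels number the replicates but do not say that same-numbered arrays were handled together. The numbers were taken to pair the arrays because same-numbered arrays deviated together in these same data. Paired p-values throughout rest on that assumption. Within each number the log2 difference was -0.41, -0.51 and -0.33. With the pairs in the limma fit the adjusted p was 0.00943. ALCAM also passed the threshold where arrays were scaled by their median (log2 difference -0.57, adjusted p = 0.0121, limma) and where they were not normalized against each other (-0.59, adjusted p = 0.00971, limma). Both of these settings also moved the median of all kept probes down, to -0.13 and -0.14 log2 units, against -0.01 after quantile normalization, so relative to that median the ALCAM difference was close to the one after quantile normalization. Over all 19 alternatives the ALCAM difference kept its sign, at -0.59 to -0.34. Only those that changed the intensity values or left out 1 array could move it.

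EPCAM, an epithelial adhesion molecule whose cleavage releases a signalling fragment of its cytoplasmic tail, was bright on all arrays. The gene lies at chr2:47369311-47387020. The signal of its brightest probe (ILMN_2160210) before normalization was 20372, 20404 and 20269 in LAP2β cells, against 26354, 24795 and 23791 in mock cells. After normalization the log2 values were 14.40, 14.41 and 14.33 in LAP2β cells, against 14.66, 14.44 and 14.55 in mock cells. The LAP2β arrays were again below the mock arrays, but mock replicate 2 came within a few hundredths of them. The means were 14.38 ± 0.04 in LAP2β cells and 14.55 ± 0.11 in mock cells (SD, n = 3 each). The log2 difference of -0.17 (SE 0.09, interval -0.37 to 0.03) did not pass the threshold (adjusted p = 0.465, limma).

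The remaining EPCAM probes gave smaller differences of the same sign. ILMN_3249032 differed by -0.13 (adjusted p = 0.640, limma) and ILMN_2160209 by -0.10 (adjusted p = 0.804, limma). On both the groups overlapped after quantile normalization. Neither probe, nor the brightest one, passed the threshold under any of the 19 alternatives.

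CD44 had a mean difference near 0, and its signal varied with the replicate number. The gene lies at chr11:35139171-35232402. Its brightest probe (ILMN_1803429) read 9.42, 9.65 and 10.14 in LAP2β cells, against 9.54, 9.69 and 9.95 in mock cells. Replicate 3 was the highest and replicate 1 the lowest in both groups, and the groups overlapped. The means were 9.73 ± 0.37 in LAP2β cells and 9.73 ± 0.21 in mock cells (SD, n = 3 each). The log2 difference was 0.01 (SE 0.17, interval -0.36 to 0.38, adjusted p = 0.991 by limma), which spans 0.777-fold to 1.30-fold. Its sign turned to negative under median scaling (-0.14) and without normalization (-0.15). The median of all kept probes was -0.13 and -0.14 in these settings, close to the CD44 values.

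A second CD44 probe (ILMN_2348788) read 8.04, 8.21 and 8.24 in LAP2β cells, against 7.94, 8.22 and 8.43 in mock cells. The same order of replicate numbers appeared within both groups. The log2 difference was -0.03 (SE 0.13, interval -0.31 to 0.25, adjusted p = 0.950 by limma). A further CD44 probe (ILMN_1778625) was not above background on any array. The CD44 probes are annotated to different transcript variants, and alternative splicing of CD44 between them was not measured here.

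CD47 lay a little higher in LAP2β cells on its detected probe (ILMN_1771333). The gene is at chr3:108043091-108091031. The log2 signal was 9.78, 9.64 and 9.61 in LAP2β cells, against 9.54, 9.51 and 9.43 in mock cells. The groups did not overlap after quantile normalization, but they did before it. The log2 difference of 0.19 (SE 0.09, interval -0.01 to 0.38) did not pass the threshold (adjusted p = 0.416, limma). Within the replicate numbers it was 0.24, 0.13 and 0.18, all of 1 sign, and the paired interval was 0.01 to 0.36, but the adjusted p stayed above the threshold (0.203 with pairs, limma). Under median scaling it was 0.05, where the median of all kept probes was -0.13. Another CD47 probe (ILMN_2356991) was not above background on any array.

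CD9, which partners with integrins and with EPCAM in tetraspanin microdomains, lies at chr12:6199946-6238266. Its probe (ILMN_1695423) read 9.69, 9.44 and 9.32 in LAP2β cells, against 9.61, 9.33 and 9.30 in mock cells. The groups overlapped, and the replicate numbers stood in the same order in both. The log2 difference was 0.07 (SE 0.12, interval -0.19 to 0.34, adjusted p = 0.853 by limma), and its sign turned under median scaling (-0.06) and without normalization (-0.07). Both values lay above the median of all kept probes in these settings (-0.13 and -0.14).

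PROM1, at chr4:15968228-16084023, was measured by 1 probe (ILMN_1786720). Its quantile-normalized intensity was 140.7, 144.4 and 134.2 in LAP2β cells, against 133.9, 123.0 and 124.9 in mock cells. It was not above background on any of the 6 arrays, so these values carry no fold change. A low level of PROM1 RNA below the detection limit of the array was not detectable here.

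**Figure D2:**
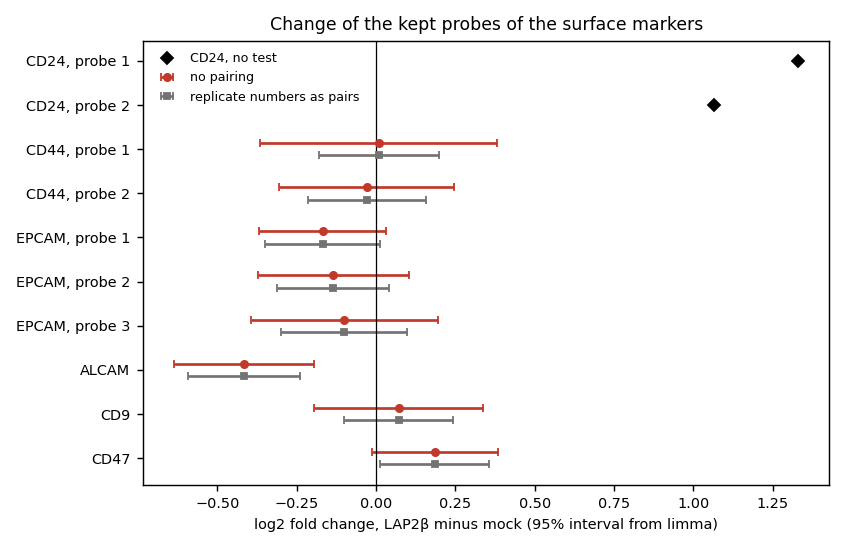
Log2 fold change of LAP2β over mock cells (horizontal axis) for the 10 kept member probes, with 95% intervals from limma without pairing (red circles) and with replicate numbers as pairs (grey squares), 3 arrays per group, and black diamonds without an interval for CD24, which was not tested. Both ALCAM intervals lie below 0, the intervals of CD44, EPCAM and CD9 include 0 in both fits, and that of CD47 includes 0 without pairs and lies at 0.01 to 0.36 with pairs.

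As a set the kept members had no common direction. Of 6 genes, each read from its brightest kept probe, 4 had a log2 difference above 0, and the median was 0.04. Without CD24 the median was 0.01 over 5 genes, 3 of them above 0. Over all 9905 genes the median was -0.01, and 4745 were above 0. CD24 is left out of the counts that follow, since its call repeats its choice. In the unpaired fit none of the other 5 was higher, against 1.17% of all genes, and none was lower, against 0.616% of all genes. At an unadjusted p under 0.05, 1 of the 5 genes other than CD24 passed, which was ALCAM, as did 1364 of all 9905 genes.

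With pairs in the fit none of the 5 was higher, against 3.55% of all genes, and ALCAM was lower, against 2.88% of all genes. Of the kept probes outside CD24, the 1 of CD47 had every LAP2β array above every mock array, against 8.83% of all kept probes. In 2 every LAP2β array was below every mock array, those of ALCAM and of EPCAM, against 10.2% of all kept probes. With 5 genes other than CD24 these counts are too small to set apart from the shares of all genes. Before normalization 3 probes outside CD24 lay below and none above, because CD47 then overlapped and a second EPCAM probe then did not.

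**Figure D3:**
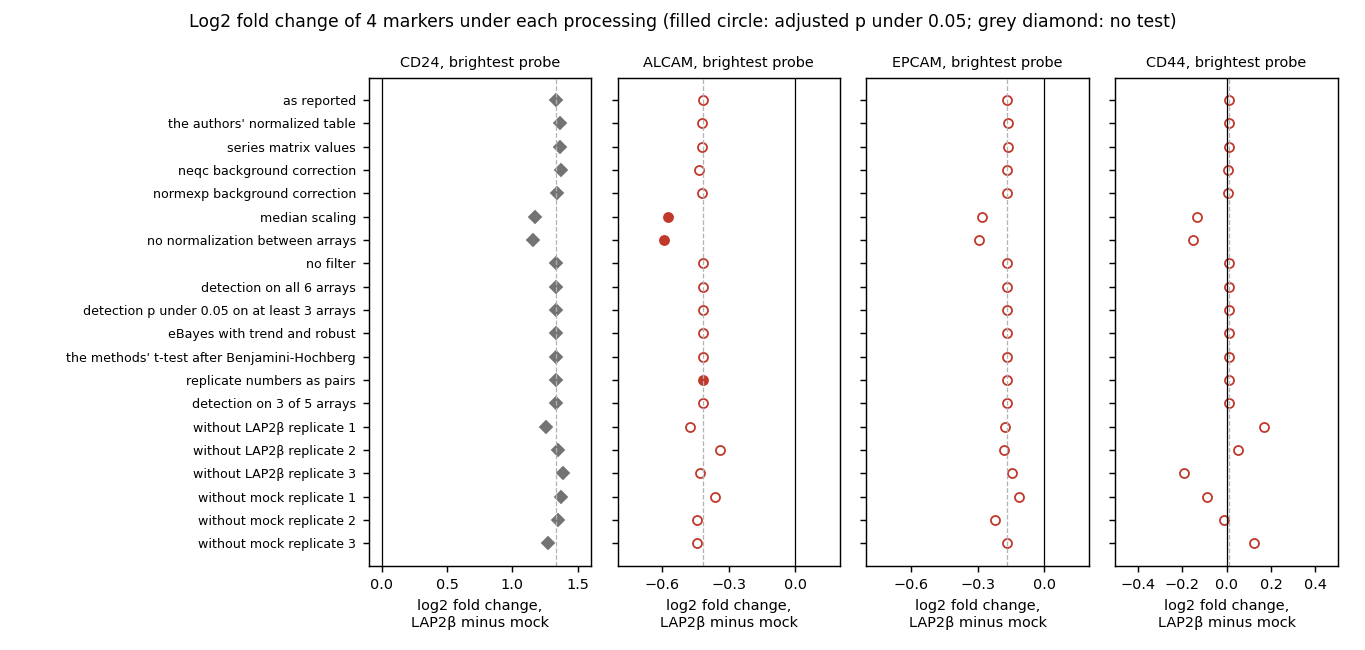
Log2 fold change of LAP2β over mock cells (horizontal axes) for the brightest probe of CD24, ALCAM, EPCAM and CD44 as reported and under 19 alternatives (rows), with filled circles for an adjusted p under 0.05, open circles for one at or above it, and grey diamonds for CD24, which was not tested. CD24 stays between 1.16 and 1.39, ALCAM between -0.59 and -0.34 with 3 filled circles, EPCAM stays below 0 and CD44 falls on both sides of 0. Rows that change only the detection filter, the test or the pairing cannot move a fold change.

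The genes whose values over the 6 arrays were closest to those of CD24 were sought by the root mean square difference of log2 values, after each gene's mean was subtracted. The closest was ANKRD1, a cardiac ankyrin repeat protein and a target of YAP, with a difference of 0.13 log2 units and a fold of 2.33. TNFRSF14, the receptor for the cytokine LIGHT, differed from CD24 by 0.14 and was 2.15-fold higher. CRIP1, a small LIM domain protein, is also among the 5, but it was above background on no mock array, so its likeness to CD24 rests on background values there and is not given. It was at least 2.45-fold higher in LAP2β cells, taking for each mock array the larger of its lowest detected signal and the signal of the probe. CPZ, a secreted carboxypeptidase, and TNS3, a focal adhesion protein, differed by 0.17 and were 2.12-fold and 2.08-fold higher. These genes were picked for their likeness to CD24 over only 6 arrays, which the 2 groups dominate, so their folds are a description with no test.

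**Figure D4:**
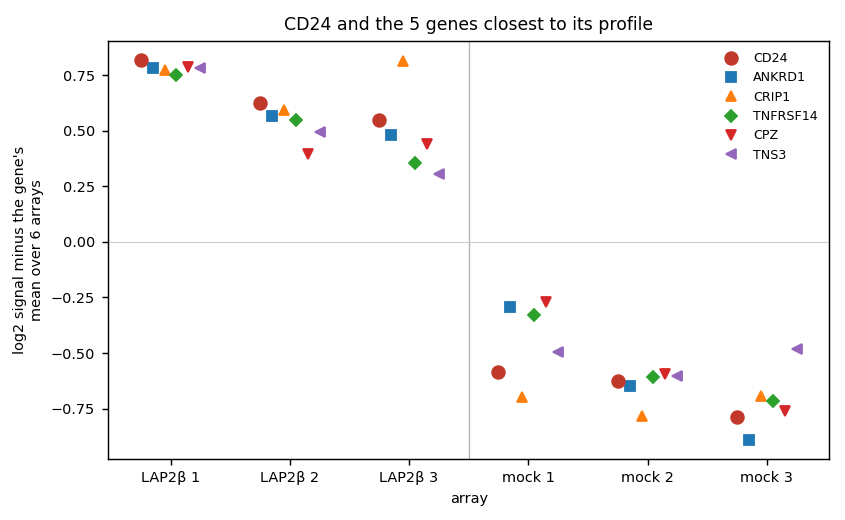
Log2 signal minus the gene's mean over the 6 arrays (vertical axis) on each array (horizontal axis, LAP2β arrays on the left) for CD24 and the 5 genes closest to it. All 6 genes are above their mean on the 3 LAP2β arrays and below it on the 3 mock arrays, which follows from how they were picked. The CRIP1 values on the mock arrays are background.

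Genes around the members were taken from 9 lists, by role, which were also chosen with earlier results of these data known. Their counts stand beside 1.17% of all genes higher and 0.616% lower in the unpaired fit, or 3.55% and 2.88% with pairs, and with 7 to 28 tested genes a list a single call says nothing particular to that list. The counts at an unadjusted p under 0.05 stand beside 1364 of all 9905 genes. CD24 reaches the surface through the GPI anchor pathway, and 28 of 29 listed genes of anchor synthesis and transfer were tested. None passed the threshold in either direction, their median log2 difference was 0.01, and 2 had an unadjusted p under 0.05. The pair with the smallest p was PIGA, the catalytic subunit of the first step (log2 difference -0.29, adjusted p = 0.275, limma), and GPAA1 of the transamidase that attaches the anchor (-0.24, adjusted p = 0.337, limma).

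Of the other GPI-anchored surface proteins 15 of 25 were tested, with 1 higher, 1 lower (2 at an unadjusted p under 0.05) and a median of 0.13. LY6D, a Ly6 family protein of stratified epithelia, read 9.58, 9.21 and 9.09 in LAP2β cells, against 8.64, 8.16 and 8.11 in mock cells. All LAP2β arrays were above all mock arrays, 1.99-fold on average (log2 difference 0.99, SE 0.16, adjusted p = 0.00826 by limma), and without mock replicate 2 the adjusted p was 0.0737. After neqc background correction the log2 difference of LY6D was 1.44. NT5E (CD73), the ecto-enzyme that makes adenosine from AMP, read 10.11, 10.17 and 10.38 in LAP2β cells, against 10.85, 11.08 and 11.11 in mock cells. It fell in LAP2β cells with no overlap between groups (log2 difference -0.79, SE 0.11, adjusted p = 0.00311 by limma). With pairs FOLR1, the folate receptor, was higher as well (log2 difference 0.30, adjusted p = 0.0434 with pairs and 0.449 without, limma), although it was detected on 2 LAP2β arrays and 1 mock array only.

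Among CD24 ligands and signalling partners 7 of 13 were tested, with none higher, 1 lower and a median of 0.04. At an unadjusted p under 0.05 (limma) there were 4, LYN below 0 and L1CAM, FYN and ANXA2 above it. LYN, a Src family kinase that associates with CD24 in lipid rafts, read 11.15, 11.20 and 10.93 in LAP2β cells, against 11.47, 11.64 and 11.57 in mock cells. It was lower in all LAP2β arrays (log2 difference -0.46, SE 0.10, adjusted p = 0.0472 by limma). This call was lost when any 1 of the arrays other than mock replicate 1 was left out, with adjusted p up to 0.243 (limma), and also after neqc (0.124) or normexp background correction (0.0618) and with detection required on all 6 arrays (0.0525).

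The list of CD44, hyaluronan and ERM (ezrin, radixin, moesin) genes had 10 of 21 tested, none higher, 1 lower (1 at an unadjusted p under 0.05) and a median of -0.09. HAS3, a hyaluronan synthase, read 9.13, 9.69 and 9.31 in LAP2β cells, against 10.40, 10.19 and 9.83 in mock cells. The groups did not overlap, and HAS3 was lower in LAP2β cells (log2 difference -0.76, SE 0.16, adjusted p = 0.0442 by limma). Without LAP2β replicate 1, LAP2β replicate 3, mock replicate 1 or mock replicate 2 the adjusted p was 0.121, 0.154, 0.0653 and 0.219, in that order. It was also lost after neqc (adjusted p = 0.125) or normexp background correction (0.0562), with detection required on all 6 arrays (0.0523) and with a trended, robust eBayes (0.0509), all by limma.

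All 15 genes of EPCAM cleavage and partnership with a probe were tested, with none past the threshold (1 at an unadjusted p under 0.05) and a median of -0.03. ADAM10, a sheddase, had a log2 difference of 0.41 (adjusted p = 0.0794, limma) and passed with pairs (adjusted p = 0.00891, limma), while its other probe gave 0.21 (adjusted p = 0.515, limma). CLDN7, the claudin that binds EPCAM, gave -0.25 (adjusted p = 0.415, limma).

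Of the tetraspanins and their partners 20 of 33 were tested, with 1 higher, none lower and a median of 0.10, and 16 were above 0 (4745 of 9905 over all genes). At an unadjusted p under 0.05 (limma) there were 6, with TSPAN13 below 0 and the others above it. TSPAN5, which escorts ADAM10 to the surface, read 8.66, 8.89 and 8.82 in LAP2β cells, against 8.21, 8.15 and 8.17 in mock cells. It was 1.53-fold higher in LAP2β cells with no overlap (log2 difference 0.61, SE 0.09, adjusted p = 0.00595 by limma). The probe is dim, and after neqc background correction the log2 difference was 0.98. With pairs TSPAN10, of the same subgroup, was higher too (log2 difference 0.39, adjusted p = 0.0322 with pairs and 0.0943 without, limma). Under median scaling and without normalization 1 gene of the list was lower, TSPAN13 (log2 difference -0.43 and -0.44, adjusted p = 0.0373 and 0.0427 by limma). Both settings move all probes down as given above, and after quantile normalization TSPAN13 gave -0.27 (adjusted p = 0.178, limma).

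The stem cell markers and regulators had 15 of 32 tested, none past the threshold (6 at an unadjusted p under 0.05) and a median of -0.07, and 14 with a probe were detected on no array. With pairs in the limma fit 5 were lower, against 2.88% of all genes, and none higher. Without pairs 4 of these 5, all but DCLK1, were lower under median scaling and without normalization, settings that move all probes down as given above. SOX9, a transcription factor of epithelial progenitors, read 9.90, 10.29 and 10.02 in LAP2β cells, against 10.62, 10.64 and 10.42 in mock cells. Its log2 difference was -0.49 (adjusted p = 0.0688 without pairs and 0.00705 with pairs, limma). ITGA6, the integrin α6 subunit used to sort progenitors, read 8.07, 7.83 and 8.05 in LAP2β cells, against 8.30, 8.43 and 8.56 in mock cells. Its log2 difference was -0.45 (adjusted p = 0.0651 without pairs and 0.0107 with pairs, limma), and -0.82 after neqc background correction. The others were MYC (-0.43), DCLK1, a marker of tuft cells (-0.39), and FUT4, the enzyme that makes the SSEA-1 antigen (-0.33). In the unpaired fit their adjusted p was 0.090, 0.182 and 0.113, and with pairs it was 0.00926, 0.0193 and 0.0285 (limma). DCLK1 was detected on 2 of the 3 LAP2β arrays. KLF4, a pluripotency and epithelial differentiation factor, was the remaining gene at an unadjusted p under 0.05 and lay on the other side, with a log2 difference of 0.36 (adjusted p = 0.178 without pairs and 0.0528 with pairs, limma).

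Of the CD47 partners and other immune evasion ligands 8 of 19 were tested, with none past the threshold in either fit (1 at an unadjusted p under 0.05 without pairs) and a median of 0.04. CALR, the calreticulin that acts against CD47 as a phagocytic signal, gave 0.25 (adjusted p = 0.367, limma), and CD59, a complement inhibitor, gave -0.20 (adjusted p = 0.379, limma). The immunoglobulin-superfamily adhesion molecules, the family of ALCAM, had 12 of 30 tested, none past the threshold in the unpaired fit (3 at an unadjusted p under 0.05) and a median of 0.15. L1CAM, a ligand of CD24 in mouse neurons, gave 0.33 (adjusted p = 0.179, limma) but was detected on 1 mock array only. NECTIN3, a nectin of adherens junctions, gave -0.47 (adjusted p = 0.182 without pairs and 0.0445 with pairs, limma). It also passed under median scaling (adjusted p = 0.0436, limma) and without normalization (0.0330), settings that move all probes down as given above. Its other probe gave -0.36 and passed in neither fit (adjusted p = 0.191 without pairs and 0.0722 with pairs, limma).

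**Figure D5:**
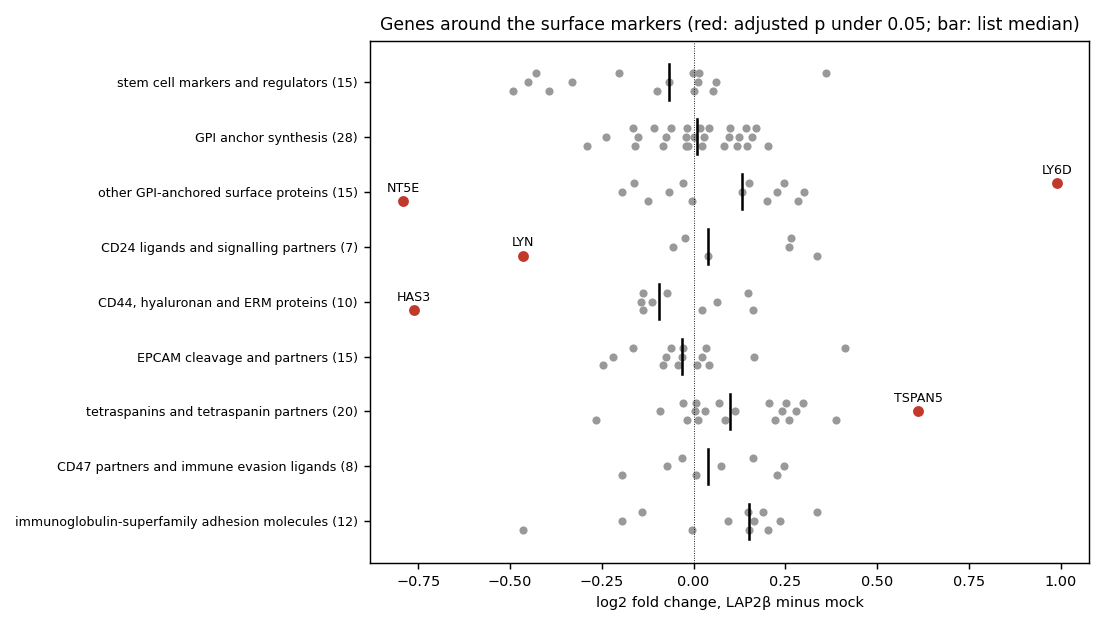
Log2 fold change of LAP2β over mock cells (horizontal axis) for the tested genes of the 9 lists (rows, number tested in parentheses), each gene read from its brightest kept probe, with vertical bars at the list medians and red points for genes past an adjusted p of 0.05 in the unpaired fit. LY6D (0.99) and TSPAN5 (0.61) are the red points above 0, and NT5E (-0.79), HAS3 (-0.76) and LYN (-0.46) those below it, while all list medians lie between -0.09 and 0.15.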

How the data were processed

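Total RNA of 3 LAP2β and 3 mock samples was hybridized to Illumina human bead chips, and the authors processed the scans with BeadStudio. They deposited linear intensity values before normalization, a quantile normalized table and a detection p-value per probe. The deposited detection p-values of 2 columns had names matching no sample and were not used, so mock replicate 3 was given the median detection p-value of its signals' ranks on the other 5 arrays. Whether background was subtracted is not given in the sources used here, but probes below detection kept a signal well above 0. That of PROM1 was 125 to 145 before normalization. Folds of dim probes given without background correction may therefore be too small. Of 29377 probes, 27988 carried 1 gene symbol in the platform annotation and 1389 several or none, and 27819 were matched by gene ID to GRCh38.p14, which supplied the positions. Intensities before normalization were quantile normalized and log2 transformed with limma 3.58.1 (R 4.3.3), filtered on detection, and fitted with lmFit and eBayes, LAP2β minus mock. P-values were adjusted by Benjamini-Hochberg over all kept probes. The kept probe with the highest mean log2 signal stood for its gene. Deviations of same-numbered arrays from their group means correlated at 0.54, 0.23 and 0.37, and 6 of 6 arrays correlated best with their own number. The numbers of the labels were therefore taken to pair the arrays. The labels do not state such a pairing, and with 3 arrays a group this match can also arise without it. Only the unpaired limma fit was tested on simulated data, with independent noise and planted changes. The paired fit and the other steps were not tested in this way. The rule named every member probe, TMPO, the list genes past the threshold (at most 6 a list, or the 2 with the smallest p), and the 5 genes closest to CD24. MYC, DCLK1, FUT4, KLF4, FOLR1, TSPAN10 and TSPAN13 were added after their values were seen. The members and lists were chosen with earlier results of these data known. Alternatives covered normalization, background correction (neqc with offset 16, normexp with offset 50), detection filters, the methods' t-test, pairing and leaving out each array.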

Additional observations from a re-analysis of the deposited data

How the results depend on the processing

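Against 220 probes past the threshold (66.4% of them higher in LAP2β cells), neqc gave 145, median scaling 537 (21.2% higher), no normalization 521 (20.9% higher), replicate numbers as a block 821 (55.1% higher), and leaving out 1 array 99 to 279, the lowest without mock replicate 2 (126 without LAP2β replicate 2). The methods' t-test gave 1616 at its own threshold, 766 higher and 850 lower, and 1 after Benjamini-Hochberg. The count of higher members, 1 or under that t-test 0, is CD24 alone, which was chosen on this difference, so it says nothing about stability. The t-test also ended the calls of LY6D, NT5E, TSPAN5, LYN and HAS3. The count of lower members, otherwise 0, was 1 (ALCAM) under median scaling, no normalization and the replicate block, which changed no other member's call. Signs turned for values that never passed the threshold. The brightest CD44 probe gave -0.14 under median scaling, -0.15 without normalization and -0.19 to 0.17 with 1 array left out, and the second gave -0.16 to 0.088. CD9 gave -0.059 under median scaling, -0.074 without normalization and -0.032 to 0.17 with 1 array left out. Median scaling and no normalization also moved the median of all kept probes, to -0.13 and -0.14. Relative to that median the brightest CD44 probe was near 0 and CD9 above it. The dimmest EPCAM probe gave -0.24 to 0.050 with 1 array left out. With the mean of all kept probes per gene, CD44 gave -0.011. The causes were not tested. Requiring detection on at least 3 of the 5 arrays with a matched detection p-value, an alternative chosen after seeing the data, left 202 probes and the same member counts. With 3 arrays a group and a median standard error of 0.10, small differences were not resolved, and dim probes carried no fold.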
